A study of Homo sapiens with 4 samples.

Results

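KLHL13 and a small group of genes around it were followed on 4 arrays of KM-H2, a Hodgkin lymphoma cell line in which the tyrosine phosphatase gene PTPN1 had been silenced or not. The group comprises 7 of the 19775 genes compared, measured by 17 of 54675 probe sets. KLHL13, KLHL9 and KLHL21 encode adaptors of ubiquitin ligases built on the scaffold CUL3, whose gene is also a member. The others are the B cell adaptors KLHL6 and KLHL14, and KEAP1. KLHL13 was chosen by its log2 values in the comparison of knockdown with control, where it stood among the lowest genes. Its values in that comparison are therefore a description, with no test, and the same holds for the other members. All probe sets assigned to these genes were kept, and none was lost to a filter on dim signals.

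Of the 4 arrays, 2 came from KM-H2 cells treated with small interfering RNA against PTPN1 (knockdown) and 2 from KM-H2 cells given a non-silencing control. Neither growth conditions beyond standard culture, nor the time after transfection, are given in the sources used here. Each group is numbered 1 and 2, which the series calls technical replicates. Every SD, SE and p-value below therefore covers the spread between arrays, not between cultures. The values are log2 RMA expression values, in which a difference of 1 is a 2-fold change of signal. In bulk RNA, fewer cells that express a gene and less RNA per cell cannot be told apart.

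Cullin RING ligases attach ubiquitin to chosen proteins. In those built on CUL3, a scaffold, the adaptor holds CUL3 through a BTB domain and the substrate through Kelch repeats, while RBX1 brings in the ubiquitin-conjugating enzyme and attachment of NEDD8 to the cullin switches the ligase on. KLHL9 and KLHL13, close paralogues, and KLHL21 are known for directing Aurora B kinase during mitosis. KLHL6 acts in B cell receptor signalling and germinal centre B cells, KLHL14 is expressed in B cells, and KEAP1 holds the oxidative stress factor NRF2 in check.

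RefSeq lists 2 start sites of KLHL13 in its promoter table (assembly GRCh38.p14), on the minus strand of chromosome X, and the 250 bases before each are shown because the gene has 1 probe set, which does not tell transcripts from these starts apart. The outer start lies beside chrX:118116811-118117060 and the inner start beside chrX:117985330-117985579. In RefSeq the gene reaches to chrX:118117340, beyond both stretches, so outer and inner refer to these 2 starts only. Capitals mark the single match to TGACNNNGC, the core of the antioxidant response element, which was searched on both strands and here lies on the strand opposite to the one shown.
KLHL13 outer start: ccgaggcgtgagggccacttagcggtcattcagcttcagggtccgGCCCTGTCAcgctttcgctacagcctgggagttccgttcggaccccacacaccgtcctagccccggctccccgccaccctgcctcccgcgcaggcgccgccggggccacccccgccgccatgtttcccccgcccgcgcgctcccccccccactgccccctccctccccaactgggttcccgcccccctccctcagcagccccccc
KLHL13 inner start: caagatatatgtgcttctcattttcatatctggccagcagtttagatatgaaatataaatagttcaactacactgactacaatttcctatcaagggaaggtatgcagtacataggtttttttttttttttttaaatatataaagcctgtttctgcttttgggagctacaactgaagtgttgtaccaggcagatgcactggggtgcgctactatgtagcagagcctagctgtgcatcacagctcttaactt
The outer sequence is 74.8% G and C with 23 CG pairs, the inner one 37.6% with 1 CG pair, against medians of 58% and 11 CG pairs over all 35116 promoters of the table. A STAT site, TTCNNNGAA, was searched on both strands because PTPN1 acts on JAK kinases upstream of the STAT factors. It had no match in either KLHL13 sequence or in the other 7 promoters found for CUL3, KLHL9, KLHL21, KLHL6 and KEAP1, and it was matched in 6.57% of all promoters. KLHL14 is not in the table. TGACNNNGC was matched in 10.9% of all promoters, and among the members it was matched once upstream of KLHL21 and at 2 places upstream of the inner start of KEAP1. No match overlapped another motif, and a match or its absence describes letters only.

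The knockdown itself was seen in PTPN1, whose brightest probe set kept 46.8% of the control signal. The other 3 PTPN1 probe sets differed by -0.07 to 0.01, and none reached 5.11, the median over all probe sets and arrays, in any array. Of all 19775 genes, each read by its brightest probe set, 11909 lay above that median in every array. All 10 listed Hodgkin cell markers, among them TNFRSF8 (the receptor CD30) and IRF4, lay above the median in every array, as did 9 of 12 measured B cell markers, while POU2AF1, MS4A1 and CD79B were below it in at least 1 array. Above the median in every array were also 5 of 8 T cell markers, 3 of 6 measured myeloid markers and 2 of 6 fibroblast markers. CCL22 (5.27 to 5.52) and GATA2 (5.43 to 5.73), both on the Hodgkin list, exceeded the median by little.

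No gene of these marker lists passed in limma between the treatments, where 0 of 19775 genes did. Of all genes 12.4% had both knockdown arrays above both controls and 15% had them below. Of the Hodgkin cell markers 8 of 10 lay above 0 in knockdown minus control, with a median difference of 0.25 (0.28 and 0.15 within the array numbers), the largest median of any list given here, against -0.01 over all genes. That median was 0.06 without knockdown array 1, 0.44 without knockdown array 2 and 0.11 without non-silencing array 2. CCL17, a chemokine that attracts T cells, read 5.86 and 6.16 under the non-silencing control and 7.25 and 6.70 under knockdown, a difference of 0.97 (SE 0.23). JUNB differed by 0.21, GATA2 by -0.20 and CCL22 by -0.14, each with groups apart. The summed log2 values of the Hodgkin list ran from 81.8 to 83.2 in the non-silencing arrays and from 82.9 to 86.9 in the knockdown arrays. Of the T cell markers 3 lay above 0 and 5 below, with a median of -0.07 (-0.02 to -0.13 without single arrays), and the 3 with groups apart were all lower in knockdown. These were CD3G at -0.51, ZAP70 at -0.37 and CD7 at -0.09. Their list summed to 48.9 to 49.2 in the non-silencing arrays and 47.8 to 48.7 in the knockdown arrays. The myeloid and fibroblast lists had medians of -0.04 and 0.07, which changed sign when single arrays were left out. The part of these shifts in the values below was not tested.

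KLHL13 read 6.33 and 6.09 under the non-silencing control and 4.71 and 4.38 under knockdown. Both knockdown arrays lay below both controls by more than 1 log2 unit, and the groups did not overlap. The means were 6.21 ± 0.17 (SD, n = 2) and 4.54 ± 0.23 (SD, n = 2), a log2 difference of -1.67 (SE 0.18), which leaves 31.5% of the signal and is 3.17-fold lower. Within number 1 it was -1.62 and within number 2 it was -1.71. This was the fifth lowest difference among all 54675 probe sets and the third lowest among genes. In the control arrays the probe set was brighter than the median of all values and in the knockdown arrays dimmer, though above the lower quartile of 4.09, so that part of the drop falls in the range where RMA compresses differences.

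The close paralogue KLHL9 did not share that drop. Its brightest probe set, 213233_s_at, read 9.72 and 10.19 under the non-silencing control and 9.62 and 10.18 under knockdown, and the next, 213117_at, read 7.03 and 7.52 against 6.92 and 7.67. In both, the arrays with the same number sat together whatever the treatment, and the groups overlapped. The knockdown differences were -0.06 and 0.02. The remaining KLHL9 probe sets, 233197_at and 237123_x_at, differed by -0.06 and -0.03 and lay below the median in all arrays. Probe sequences were not used here, so how far a KLHL9 probe set also detects KLHL13 was not tested.

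KLHL21, the third adaptor tied to Aurora B, read 7.71 and 6.99 under the non-silencing control and 7.92 and 7.31 under knockdown. The knockdown array was the higher one within each number, by 0.21 and 0.32, but the groups overlapped because the arrays numbered 2 were lower in both groups. On average knockdown was 0.26 higher, a value that ran from -0.10 to 0.62 when single arrays were left out.

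The scaffold CUL3 was nearly level. Its brightest probe set, 201371_s_at, read 10.96 and 11.18 under the non-silencing control and 11.00 and 11.18 under knockdown, a difference of 0.02. A second probe set, 201370_s_at, read 8.98 and 9.17 against 8.66 and 9.09, and differed by -0.20, mostly between the arrays numbered 1 (-0.33, against -0.08). The dim 201372_s_at differed by -0.14. Both groups overlapped in all 3 probe sets of CUL3.

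**Figure D1:**
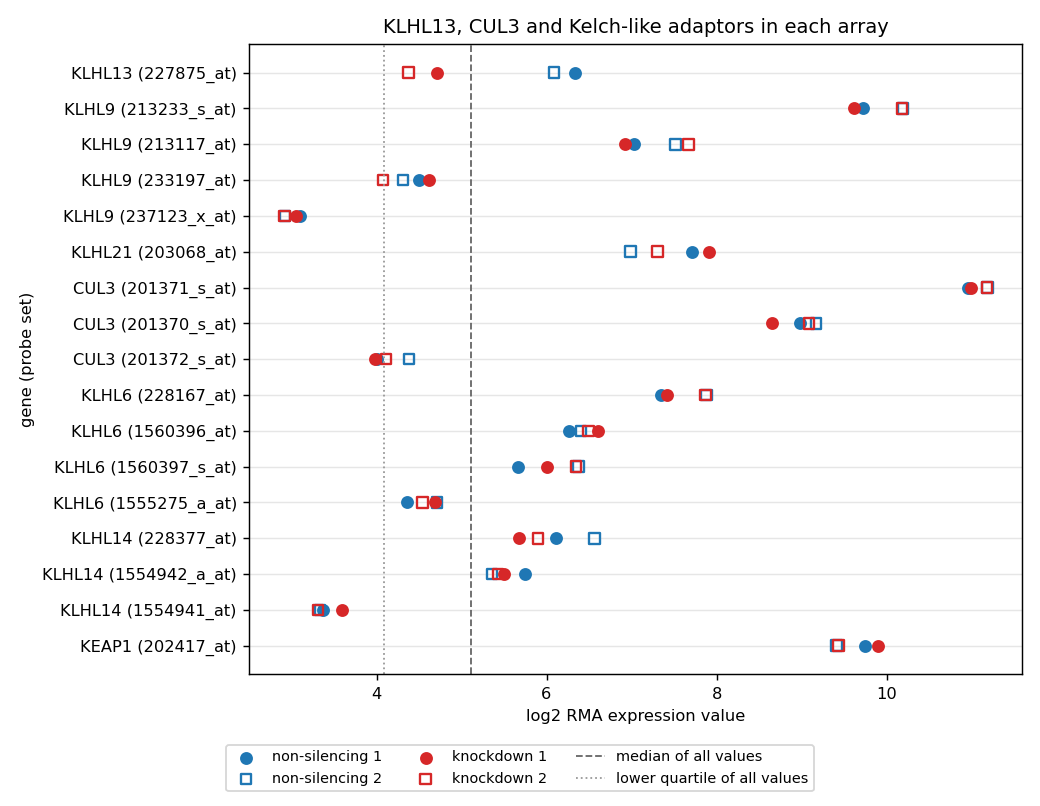
Log2 RMA value (x axis) of each probe set of KLHL13, CUL3 and the other adaptors (y axis) in each of the 4 arrays, with non-silencing arrays in blue and knockdown arrays in red, filled circles for number 1 and open squares for number 2. In the KLHL13 row the red symbols (4.71 and 4.38) lie furthest from the blue (6.33 and 6.09). The groups are also apart, by less, in 228377_at of KLHL14 and 1560396_at of KLHL6. In all rows of KLHL9, KLHL21, CUL3 and KEAP1, and in some of KLHL6 and KLHL14, the symbols separate by shape, that is by array number.

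Of the B cell adaptors, KLHL14 had lower values under knockdown in 1 of its 3 probe sets, and KLHL6 had none. The brightest KLHL14 probe set, 228377_at, read 6.11 and 6.56 under the non-silencing control and 5.67 and 5.90 under knockdown. Both knockdown arrays lay below both controls, with differences of -0.44 and -0.66 within the numbers and a mean difference of -0.55 (68.1% of the signal left). The other KLHL14 probe sets gave no such gap: 1554942_a_at differed by -0.09 and the dim 1554941_at by 0.10, and averaging the gene's probe sets gave -0.18.

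KLHL6 was read by 4 probe sets. The brightest, 228167_at, read 7.35 and 7.88 under the non-silencing control and 7.42 and 7.87 under knockdown, a difference of 0.03. In 1560396_at the knockdown arrays, at 6.61 and 6.49, lay above the controls at 6.27 and 6.41, by 0.21 on average. The remaining 2 differed by 0.16 and 0.08 with overlapping groups. Over the whole list of B cell markers, 5 of 12 measured genes lay above 0 and 7 below, with a median of -0.09. Groups were apart in 2, both lower in knockdown, where 15% of all genes were apart and lower. These were MS4A1 at -0.42 (-0.80 and -0.05 within the numbers) and CD22 at -0.15. The summed log2 values of the B cell markers ran from 83.7 to 83.8 in the non-silencing arrays and from 81.7 to 83.6 in the knockdown arrays. Their part in the KLHL14 values was not tested.

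KEAP1 read 9.75 and 9.41 under the non-silencing control and 9.90 and 9.43 under knockdown. Its groups overlapped. The difference averaged 0.08, with 0.15 for number 1 and 0.02 for number 2.

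Taking all probe sets of the 7 genes, 2 of 17 had both knockdown arrays below both controls (KLHL13 and 228377_at of KLHL14), 1 had them above (1560396_at of KLHL6) and 14 overlapped. Over all 54675 probe sets, 15.3% were apart with knockdown lower and 13.4% with knockdown higher. Since the comparison chose the group, nothing is read from this count. In 14 of the 17 the mean difference was under 0.25 in size, and in 9 the sign was the same within both array numbers. The median size of the difference was 0.09, against 0.10 over all probe sets. Across all probe sets limma gave 0 with an adjusted p under 0.05, and 1369 (2.5%) with an unadjusted p under 0.05.

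The array numbers separated most of these probe sets further than the treatment did. The comparison of arrays numbered 2 with arrays numbered 1 played no part in choosing the genes, and was tested with a term for treatment in the fit. Of the 17 probe sets 14 differed more between the numbers than between the treatments, against 60.4% of all probe sets. The median size of the number difference was 0.31, against 0.14 over all probe sets. The 17 come from 7 genes, and the values over all probe sets are not those of probe sets of like brightness.

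In that test 3 of 17 member probe sets were called higher and 1 lower in the arrays numbered 2, where of all 54675 probe sets 4.82% were called higher and 3.25% lower, 8.08% in all. Of the 17, 11 lay above the median in every array, so these shares are not those of probe sets of like brightness. KLHL21 was lower in the arrays numbered 2 by -0.67 (SE 0.12, limma adjusted p = 0.0183), a 1.59-fold drop that was -0.72 in the non-silencing and -0.61 in the knockdown arrays. KLHL9 was higher in them by 0.62 (SE 0.12, limma adjusted p = 0.0276) in 213117_at and by 0.52 (SE 0.12, limma adjusted p = 0.0383) in 213233_s_at. KLHL6 was higher by 0.49 (SE 0.12, limma adjusted p = 0.0438) in 228167_at, while its other probe sets did not pass. Of these 1560397_s_at was higher by 0.53 (limma adjusted p = 0.0555), and 1560396_at and 1555275_a_at, at 0.01 and 0.10 (limma adjusted p = 0.973 and 0.75), had opposite signs in the 2 treatments. Each of the 4 called had the same direction in both treatments. With number and treatment both fitted to 4 arrays, limma takes most of each SE from the spread pooled over all probe sets. The SE therefore ran only from 0.11 to 0.15 in the 17, and says little of the spread of a single probe set.

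The remaining members did not pass. KEAP1 differed by -0.40 (limma adjusted p = 0.0831) and KLHL13 by -0.29 (limma adjusted p = 0.191), and the CUL3 probe sets by 0.21, 0.31 and 0.25 (limma adjusted p from 0.185 to 0.347). KLHL14 differed by 0.34 in 228377_at, -0.24 in 1554942_a_at and -0.16 in 1554941_at (limma adjusted p = 0.147, 0.337 and 0.509). The dim KLHL9 probe sets went the other way from the bright ones, by -0.37 and -0.15 (limma adjusted p = 0.146 and 0.504).

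These calls depended on the fit. With the number alone in it 1 member probe set passed, 213117_at of KLHL9 (limma adjusted p = 0.049), among 1672 probe sets in all. Among probe sets at or above the median signal 6 passed, with KEAP1 (limma adjusted p = 0.0387) and 1560397_s_at of KLHL6 (limma adjusted p = 0.0327) beside the 4. In that setting 5943 probe sets passed in all, against 4416 when dim probe sets were kept, so bright probe sets passed more often. Quantile normalization left 3, without 228167_at of KLHL6 (limma adjusted p = 0.051), and centring the arrays gave 5, adding 1560397_s_at (limma adjusted p = 0.0473). Over all probe sets 4400 passed with quantile normalization and 4704 with centring. The 3' beta-actin control exceeded the 5' control, a sign of how intact and how evenly amplified the RNA was, by 1.31 (non-silencing) and 1.33 (knockdown) for number 1 and by 0.972 and 0.969 for number 2. Its part in these differences was not tested. The labels do not say what the numbers stand for beyond technical replicates.

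**Figure D2:**
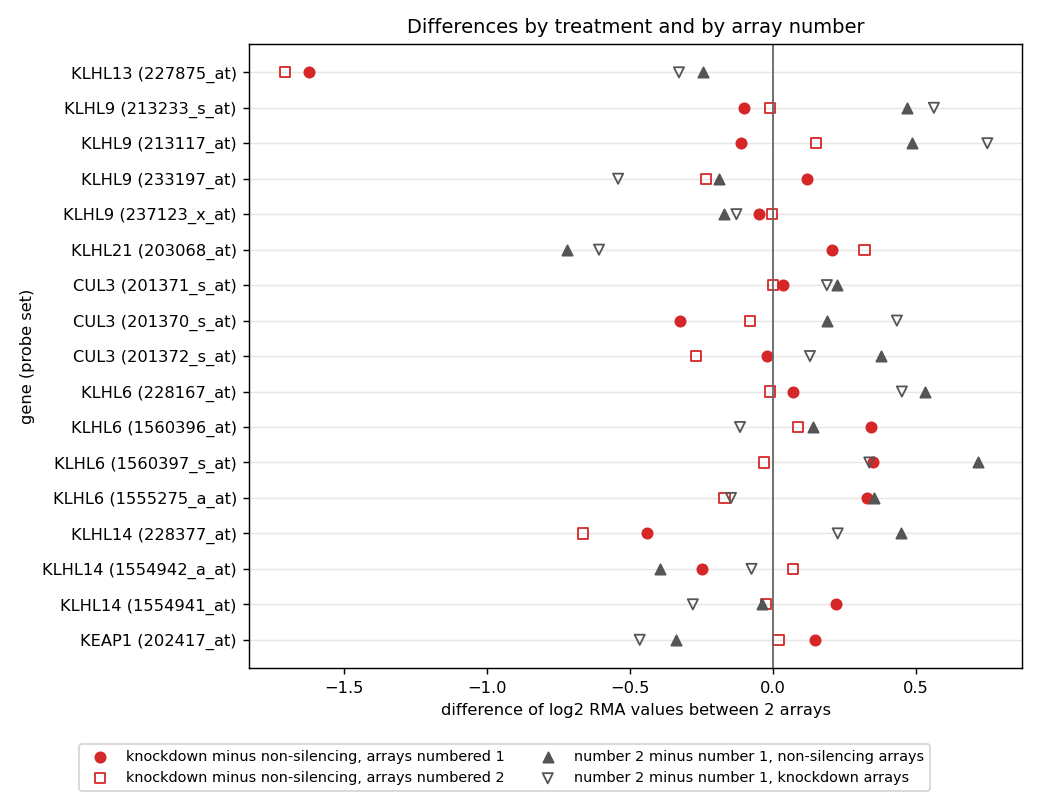
Differences of log2 RMA values between pairs of arrays (x axis) for each probe set (y axis), with knockdown minus non-silencing in red (circles number 1, squares number 2) and number 2 minus number 1 in grey (upward triangles non-silencing, downward triangles knockdown). KLHL13 stands alone at the left in red, at -1.62 and -1.71, whereas for KLHL21 the grey symbols, at -0.72 and -0.61, lie further from 0 than the red.

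The other parts of the ligase were measured to see whether they moved with KLHL13. In the knockdown comparison, with treatment alone in the fit, limma called 0 of 19775 genes at an adjusted p under 0.05, 509 (2.57%) had an unadjusted p under 0.05, 48.2% lay above 0, and 27.4% had groups that did not overlap (12.4% higher and 15% lower in knockdown). All list counts below are read against these shares, and the median difference of all genes was -0.01.

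Among the CUL3 ligase machinery, which covers RBX1, the NEDD8 pathway and the COP9 signalosome that removes NEDD8, 13 of 23 measured genes lay above 0 and 10 below, 7 had groups apart and none passed in limma. The median was 0.03. UBE2F, a NEDD8-conjugating enzyme, read 8.25 and 8.25 under the non-silencing control and 8.84 and 8.58 under knockdown, a difference of 0.46 (SE 0.15). With treatment alone in the fit, it was the 1 gene of the list with an unadjusted limma p under 0.05. The signalosome genes COPS8 and COPS7B differed by 0.27 and 0.19, and RBX1, the RING subunit, by -0.12. UBE2F is known as the partner of CUL5 complexes more than of CUL3. Of the 24 listed genes UBE2M, also of the NEDD8 pathway, was not measured.

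The other cullins, scaffolds of sister ligases, all lay above the median signal. Their differences were -0.16 for CUL2, -0.09 for CUL4B, -0.03 for CUL7, 0.00 for CUL1, 0.01 for CUL4A, 0.03 for CUL5 and 0.08 for CUL9. Only CUL2 had its groups apart, with 9.75 and 9.70 in the knockdown arrays against 9.79 and 9.99 in the controls.

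Of the other Kelch-like adaptors 39 of 44 listed genes were measured, 23 of them above 0 and 16 below, with a median of 0.02. Groups were apart in 13, with 9 higher and 4 lower in knockdown. With treatment alone in the fit, 0 had an unadjusted limma p under 0.05. Their differences ran from -0.25 to 0.42. KLHL13, at -1.67, was chosen by this comparison, so nothing is read from its place outside that range. The largest among those apart were KBTBD12 at 0.42, KBTBD11 at 0.26, KBTBD6, which joins a ligase for a regulator of RAC signalling, at 0.24, and KLHL31 at 0.23. KBTBD12, KBTBD11 and KLHL31 lay below the median in all arrays.

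The remaining BTB adaptors of CUL3 were also centred close to 0. Of 24 measured genes 14 lay above 0 and 10 below, with a median of 0.05 and a range from -0.28 to 0.27, and 9 had groups apart. KCTD6 (0.27), KCTD17 (0.25) and KCTD10 (0.20), from the potassium channel tetramerisation domain family, lay above 0, and BTBD3, dim in all arrays, at -0.28.

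**Figure D3:**
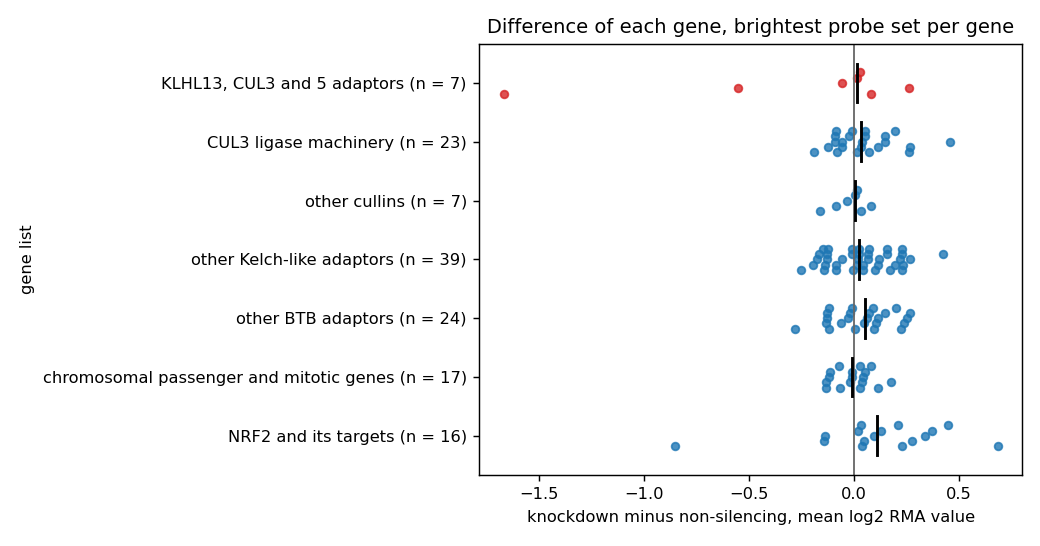
Knockdown minus non-silencing difference of mean log2 RMA values (x axis) for each gene, by its brightest probe set, in each list (y axis), with black bars at list medians. KLHL13 is at -1.67 and KLHL14 at -0.55, and the other Kelch-like adaptors run from -0.25 to 0.42. Both genes are in the group chosen with this comparison, so nothing is read from their place outside that range. The mean of all KLHL14 probe sets, -0.18, lies inside it.

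Genes of the chromosomal passenger complex and mitosis, among which the known substrate of KLHL9, KLHL13 and KLHL21 lies, were centred on 0. Of 17 genes 8 lay above 0 and 9 below, with a median of -0.01 that was 0.06 and -0.10 within the numbers. RACGAP1, KIF23, BUB1 and BUB1B, regulators of cytokinesis and the spindle checkpoint, had groups apart, with differences of -0.12, -0.07, -0.11 and 0.03. AURKB itself, named here as the known substrate and outside the rule for named genes, read 9.17 and 8.71 under the non-silencing control and 9.25 and 8.60 under knockdown, so that its arrays paired by number. These are transcript values, and a ligase acts on protein.

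NRF2 and its targets, read beside KEAP1, lay mostly above 0. Of 16 measured genes 13 were above 0 and 3 below, with a median of 0.11 that was 0.13 and 0.12 within the numbers. It was 0.03 without knockdown array 1, 0.07 without non-silencing array 2 and 0.29 without knockdown array 2. No gene passed, and groups were apart in 5. HMOX1, the heme oxygenase gene, read 7.07 and 7.39 under the non-silencing control and 8.30 and 7.53 under knockdown. Its difference of 0.68 (SE 0.29) thus came largely from knockdown array 1, being 1.23 and 0.14 within the numbers. TXNRD1, which encodes thioredoxin reductase, read 10.73 and 10.70 against 11.19 and 10.98, a difference of 0.37. With treatment alone in the fit, it was the 1 gene of the list with an unadjusted limma p under 0.05. OSGIN1 differed by 0.23 and TKT, a transketolase gene, by -0.14. NFE2L2, which encodes NRF2, differed by 0.02, and AKR1C1 by -0.85 with overlapping groups, both named after their values were seen.

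The measured neighbours of KLHL13 on the X chromosome had a median near 0, but 5 of the 10 lay below the median signal in every array. These were CT83, SLC6A14, AGTR2, DANT2 and ZCCHC12, and dim probe sets understate differences, so a drop in them could be missed. The 5 nearest measured genes on either side in the RefSeq order had a median difference of 0.02 and ran from -0.22 to 0.31. On the side that holds IL13RA1 they were WDR44 (0.02), DOCK11 (-0.22), IL13RA1 (0.01), ZCCHC12 (0.02) and LONRF3 (0.31), and on the other side CT83 (-0.10), SLC6A14 (-0.03), AGTR2 (0.06), DANT2 (0.09) and PLS3 (-0.06). DOCK11, an activator of the small GTPase CDC42, read 9.26 and 9.68 under the non-silencing control and 8.98 and 9.52 under knockdown, with overlapping groups. IL13RA1, a receptor chain for interleukin-13 that signals through JAK kinases, differed by 0.55 within number 1 and by -0.52 within number 2. LONRF3 was high in knockdown array 1 alone, at 5.27 against 4.67 to 4.69 elsewhere, with differences of 0.60 and 0.01 within the numbers.

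**Figure D4:**
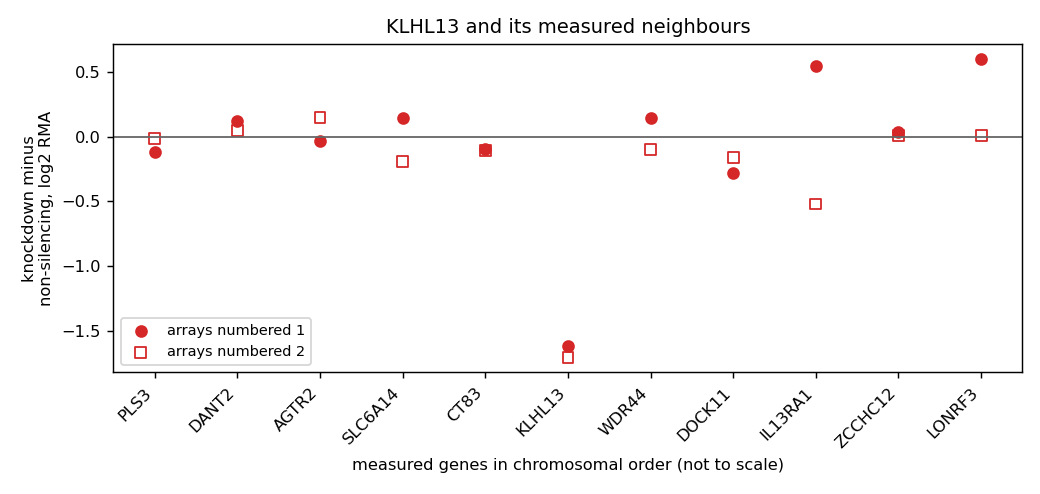
Knockdown minus non-silencing difference of log2 RMA values (y axis) within each array number for KLHL13 and the 5 nearest measured genes on either side, in chromosomal order and not to scale (x axis). KLHL13, which was chosen by this comparison, has both symbols, at -1.62 and -1.71, below all others. IL13RA1 has its symbols on opposite sides of 0. CT83, SLC6A14, AGTR2, DANT2 and ZCCHC12 are dim in every array.

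The genes whose pattern over the 4 arrays was most like that of KLHL13, after each gene's own mean was subtracted, were MYT1L, GKN1, IGLC1, KIZ and AVPR1A. The root mean square difference from KLHL13 was 0.19 for MYT1L, a neural zinc finger gene, and 0.27 for GKN1, a stomach lining gene. It was 0.32 for the immunoglobulin gene IGLC1, 0.35 for the centrosomal gene KIZ and 0.37 for the vasopressin receptor gene AVPR1A. MYT1L read 5.42 and 4.76 under the non-silencing control and 3.87 and 3.34 under knockdown, and both knockdown values lay below the lower quartile of all values. The likeness rests on 4 arrays and was largely set by the knockdown difference, which ran from -1.48 to -1.03 in these genes.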

How the data were processed

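RNA from 4 KM-H2 samples was measured on Affymetrix arrays after 2 cycles of amplification, per the labels' protocols. The authors deposited log2 values from RMA, as the submitters' processing notes name it, which corrects background, normalizes by quantiles and summarises probes per probe set. The software behind it is not given in the sources used here. This evens out array distributions and compresses dim differences. Groups came from the sample titles.

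Probe sets were named from the platform annotation through gene identifiers in RefSeq GRCh38.p14. Of 54675, 41097 had 1 symbol, 1801 several and 11777 none. Gene values are those of the probe set with the highest mean. No further normalization or filter was applied. Differences were fitted with limma 3.58.1 under R 4.3.3 (lmFit, eBayes), two-sided, with Benjamini-Hochberg adjustment over all probe sets or genes at 0.05. Treatment was fitted alone, array number with treatment. The method was tested on simulated data.

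Members, lists and rules were chosen with earlier results of these data known. Named genes were the members, PTPN1, all cullins and neighbours, up to 4 genes per list with the largest differences among those with groups apart, and the 5 genes most like KLHL13. Alternatives were quantile normalization, centring, a filter on dim probe sets, the mean of probe sets, a variance trend, a replicate block and leaving out each array. Protein sequences were not used here.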

Additional observations from a re-analysis of the deposited data

How the results depend on the processing

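The KLHL13 difference of -1.67 ranged from -1.83 to -1.50 without 1 array. Its groups did not overlap, so leaving out 1 array could not change its direction. KLHL13 has 1 probe set, so the mean of probe sets could not change its value. Without 1 array the brightest probe sets of KLHL9 (-0.34 to 0.22), KLHL21 (-0.10 to 0.62), CUL3 (-0.10 to 0.13), KLHL6 (-0.24 to 0.29) and KEAP1 (-0.15 to 0.32) crossed 0, and KLHL14 ranged from -0.78 to -0.33. With the number alone in the fit 1672 probe sets passed in place of 4416, and 1 member probe set in place of 4. The mean of all probe sets moved CUL3 to -0.11, KLHL6 to 0.12 and KLHL14 to -0.18.

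Same-numbered arrays share only a number in the labels. Their deviations from the group means correlated at 0.59 across probe sets. With the replicate block 164 probe sets and 72 genes passed, in place of 0, and none of those genes belonged to the lists described, where the lowest adjusted p was 0.0528, among NRF2 and its targets. An unadjusted limma p under 0.05 was found with the block in 2046 of 19775 genes. The counts were 2 of 39 other Kelch-like adaptors, 2 of 23 ligase machinery genes, 3 of 24 other BTB adaptors and 4 of 16 NRF2 genes. The other cullins, mitotic genes and neighbours of KLHL13 had 0. Marker lists had 5 of 10 (Hodgkin), 2 of 8 (T cell), 3 of 6 (myeloid), 1 of 6 (fibroblast) and 0 of 12 (B cell). A variance trend gave 1 gene. Without 1 array 0 to 1 probe sets and 0 to 1 genes passed.

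The median of the other Kelch-like adaptors changed sign without single arrays, and that of NRF2 and its targets stayed above 0 but changed by more than 1.5 times. The other Kelch-like adaptors had 0.042 with arrays centred, 0.043 among probe sets at or above the median signal, and -0.018 to 0.069 without 1 array. NRF2 and its targets had 0.085 with quantile normalization, 0.13 with arrays centred, 0.17 at or above the median signal, and 0.027 to 0.29 without 1 array. Without 1 array the ligase machinery ranged from -0.016 to 0.089, the other cullins from -0.12 to 0.057, the other BTB adaptors from 0.0088 to 0.057, the mitotic genes from -0.12 to 0.073 and the neighbours of KLHL13 from -0.070 to 0.084. With 2 arrays in a group, the number of arrays limits the precision, and dim probe sets understate differences.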
